A study of Mus musculus with 15 samples.

Results

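The genes described here are those for which a difference between WT and H-ras KO thymocytes of the mouse was backed by more than 1 probe set. Thymocytes are the T-cells that mature in the thymus. An Affymetrix probe set is a group of short oligonucleotides that together read 1 transcript, and many genes are read by several of them. Of 12385 genes on the thymocyte arrays, 4963 had 2 or more probe sets. A gene was taken when at least 2 of its probe sets differed by a fold change (F.C.) of 1.5 or more in the same direction between the WT and the H-ras KO array. This gave 64 genes (1.29% of the 4963), of which 38 were higher and 26 lower in WT. The same comparison that is described therefore chose the genes, and their differences are a description with no test.

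Total RNA was taken from thymocytes isolated directly from the animals, with no treatment, of 1 WT, 1 H-ras KO and 1 N-ras KO mouse on the 129/SJ background, and each was hybridized to 1 array. The KO mice lack the gene in the whole animal and came, like the WT mouse, from crosses of heterozygous mice. The methods describe WT mice as littermates of either KO line. Whether this WT mouse was a littermate of the H-ras KO mouse is not given. The labels give ages of 6 to 20 weeks, the methods 6 weeks for thymocytes, and neither gives the sex. A further 12 arrays of another type hold CD4+ T-cells from the spleens of WT mice or N-ras KO mice, cultured overnight with 1 μg/ml antibodies to CD3 and CD28 or without them, 3 arrays per group, and no CD4+ T-cells of H-ras KO mice are among them.

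Ras proteins are small GTPases that switch on when bound to GTP and pass signals from surface receptors, such as the T-cell receptor (TCR), to the Raf, MEK and ERK kinases. Among the first genes that this cascade turns on are the immediate early genes, many of which encode transcription factors or inhibitors of the signal itself. H-ras and N-ras are closely related and differ mainly in the tail that anchors them to membranes.

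The values are log2 expression relative to the median of the 3 thymocyte arrays on each probe set, so that 1 array always reads 0. They hold differences between mice but no level, and the cell type could not be checked by how strongly its markers were expressed. Each genotype is 1 mouse, so that no difference could be checked on a replicate. Differences between genotypes cannot be told apart from those between individual mice. The WT array that chose the genes also enters every comparison with N-ras KO. WT above or below both KO arrays is thus partly given by the choice of genes and is not a second check of the difference. In bulk RNA, fewer cells of a type and less RNA per cell cannot be told apart either.

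The deleted gene was read first. The Hras probe set, which was identified through the supplementary tables of the study because the platform annotation used here does not list it, read 0.17 log2 in the WT array, 0 in the N-ras KO array and -2.85 in the H-ras KO array. The WT array was thus 8.13-fold above the H-ras KO array, in the direction that the label gives. This probe set carries a suffix of those that may hybridize to other transcripts. The 3 Nras probe sets read 0, 0.02 and 0 in WT and 0.16, 0 and 0.28 in H-ras KO, against -1.81, -2.44 and -2.38 in N-ras KO. Nras thus was within 1.5-fold of WT in the array without Hras.

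Genes of the Ras pathway itself were close to WT in the H-ras KO array. Of 80 probe sets for 46 genes that encode Ras regulators, effectors and kinases, 1 was 1.5-fold higher in WT and none was lower. It read Spry1, an inhibitor of receptor tyrosine kinase signaling that ERK induces, at a log2 difference of 0.68. The list's median difference was 0, as was that of all probe sets, and no gene of this list was among the 64. Of all probe sets with 1 gene 1.48% were higher and 1.31% lower, and every list count is set beside these shares. All gene lists were drawn up with earlier results of these data known, so no count is independent evidence of a direction.

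Markers of thymocytes differed little. Of 60 probe sets for 35 genes of thymocyte identity, Lef1 (0.80) and Ikzf1 (0.64), which encode transcription factors of developing lymphocytes, were higher in WT and Rag2, a subunit of the recombinase that assembles antigen receptor genes, was lower (-0.60). The median difference over this list was 0.03. Lists of markers of other cells varied. Of 29 probe sets for neutrophil granule proteins 11 (37.9%) were higher in WT and none was lower, with a median of 0.50. The antimicrobial peptide gene Camp led them at 2.35. Of 38 probe sets for resting mature T-cells 6 (15.8%) were higher and 1 (2.63%), of Foxp1, was lower (-1.61). Among the higher were Cd96 (3.12), the quiescence factor gene Klf2 (1.25) and the homing receptor genes Ccr7 (1.06) and S1pr1 (0.83). Of 39 probe sets for thymic epithelium and stroma 2 (5.13%) were lower, Krt18 (-0.87), a keratin, and Prss16 (-0.86), a thymus-specific protease. Xist, the RNA that coats the inactive X chromosome, differed by -0.78, -0.37 and -0.36. It was read as part of a list of 8 sex-linked genes with 19 probe sets. On that list only the Xist probe set at -0.78 passed 1.5-fold in either direction. The differences of the list ran up to 0.41, around a median of -0.01. Whether the mice differed in sex was not tested. These shifts in cell markers stand beside every group of genes below, and their part in it was not tested.

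Over the whole array 342 probe sets (1.51%) passed 1.5-fold with WT higher and 333 (1.47%) with WT lower. Of the 4963 genes that could meet the criterion, 0.766% were higher and 0.524% lower, and these shares are the rule itself. The 64 genes had 213 probe sets, of which 149 passed 1.5-fold and none passed it in the opposite direction. Every probe set passed for 24 of the 38 higher and 13 of the 26 lower genes, and at least 3 probe sets passed for 8 higher and 5 lower genes. The median of the genes' mean differences was 0.80 log2 for those higher and -0.70 for those lower, while 90% of all probe sets lay between -0.29 and 0.30.

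**Figure D1:**
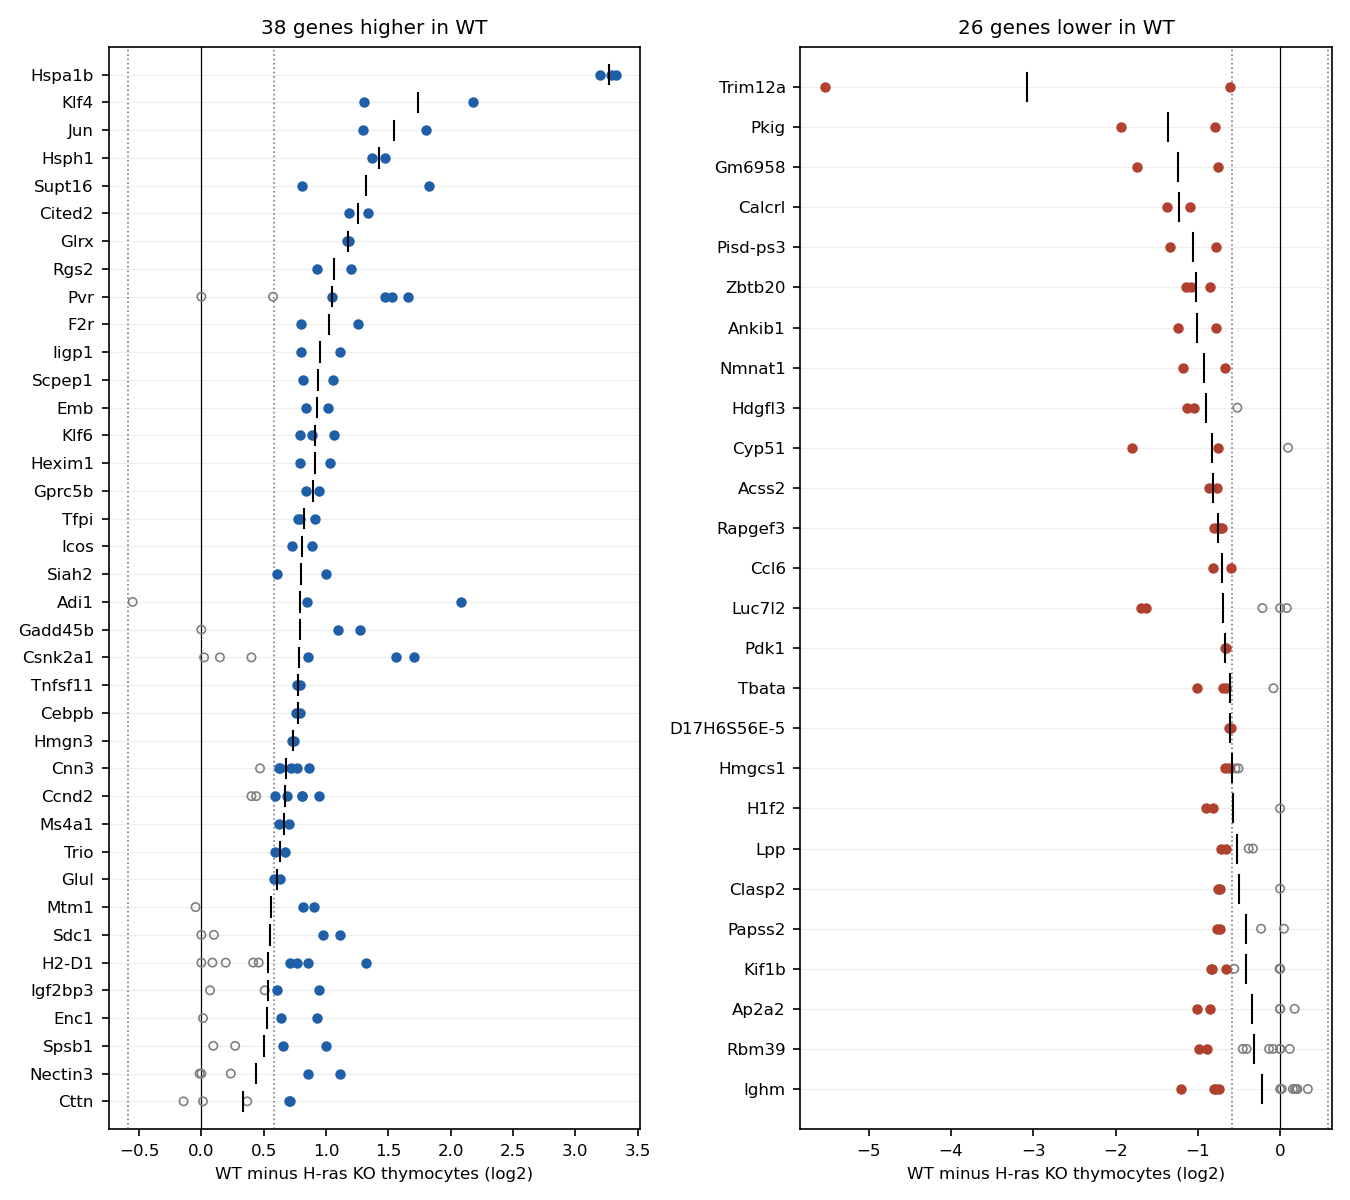
Log2 difference, WT minus H-ras KO thymocytes, of each probe set (points) of the 38 genes higher (left) and the 26 genes lower in WT (right), with 1 array per genotype. Filled points passed 1.5-fold (dotted lines), open points did not, and vertical ticks mark each gene's mean. Hspa1b stands apart on all 3 probe sets, while the lowest point, Trim12a at -5.54, has a second probe set at -0.61.

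Genes near the threshold were separated by very little. By the second largest difference, the 3 genes just inside were Glul (0.59), Trio (0.59) and D17H6S56E-5 (-0.60), and the 3 just outside were Nfat5 (-0.58), P4ha1 (0.58) and Zfand2a (0.58). Genes with 2, 3 and 4 or more probe sets contributed 32 of 3058, 12 of 1194 and 20 of 711, so that genes read by many probe sets met the criterion more often, as its wording allows.

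Of the gene lists, that of the immediate early genes held the most of the 64 genes, all higher in WT. Members were Klf4, Klf6, Jun, Rgs2 and Gadd45b. Klf4, a Kruppel-like zinc finger factor that restrains T-cell proliferation, read 2.18 and 1.3 log2 on its probe sets in WT, 0 on both in H-ras KO, and -0.56 and -0.55 in N-ras KO. Both Klf4 probe sets placed WT above both KO arrays, by 4.53-fold and 2.47-fold against H-ras KO.

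Jun, which encodes a subunit of the AP-1 transcription factor, read 1.80 and 1.29 in WT, 0 in H-ras KO, and -1.59 and -1.53 in N-ras KO. Klf6, a relative of Klf4, read 0.79, 1.07 and 0.89 in WT, 0 on all 3 probe sets in H-ras KO, and -0.31, -0.15 and -0.21 in N-ras KO. For these genes the H-ras KO array lay between WT and N-ras KO. The letters before the RefSeq starts of Jun and Klf6 are shown because both hold the same 8 letters, TGACATCA, a variant of the site that AP-1 proteins are known to bind. The capitals mark it, 45 bases before the Jun start and 119 before the Klf6 start. Each run covers 250 bases of build GRCm38.p6, chr4:95052223-95052472 on the minus strand for Jun and chr13:5861239-5861488 on the plus strand for Klf6.
Jun: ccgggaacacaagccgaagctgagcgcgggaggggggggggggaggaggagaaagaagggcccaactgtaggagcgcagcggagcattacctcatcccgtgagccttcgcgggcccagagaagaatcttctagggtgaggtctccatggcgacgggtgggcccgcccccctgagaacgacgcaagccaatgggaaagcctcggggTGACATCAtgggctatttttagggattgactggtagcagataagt
Klf6: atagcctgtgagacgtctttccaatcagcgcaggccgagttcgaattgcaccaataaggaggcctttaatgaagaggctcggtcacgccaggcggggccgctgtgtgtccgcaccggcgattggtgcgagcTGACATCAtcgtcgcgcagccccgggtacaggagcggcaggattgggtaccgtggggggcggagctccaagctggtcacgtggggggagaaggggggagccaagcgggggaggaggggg

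Rgs2, which speeds the inactivation of heterotrimeric G proteins, read 1.20 and 0.93 in WT, 0 in H-ras KO, and -0.47 and -0.42 in N-ras KO. Gadd45b, a stress-induced activator of p38 and JNK kinase signaling, read 0.99 and 1.17 in WT on 2 probe sets, -0.11 and -0.10 in H-ras KO and 0 in N-ras KO. Its other probe set read 0 on all 3 arrays and holds no difference. In contrast to Jun and Klf4, the N-ras KO array was not below the H-ras KO array for Gadd45b.

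**Figure D2:**
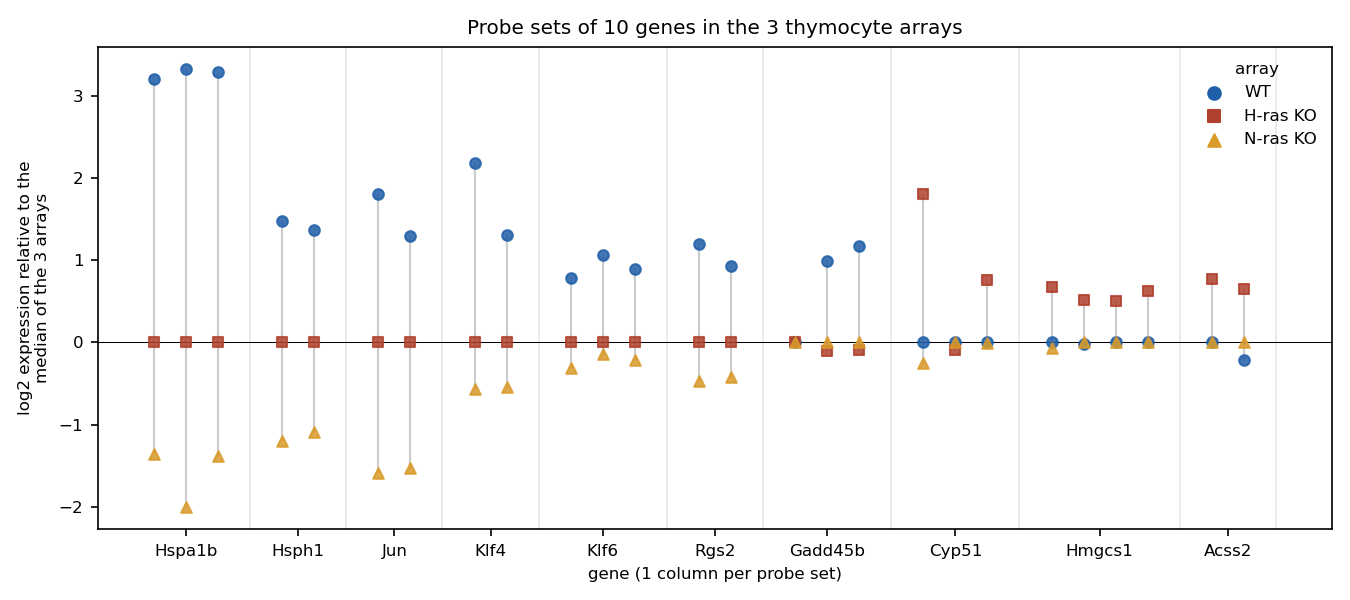
Log2 expression relative to the median of the 3 thymocyte arrays (vertical axis) for each probe set (column) of 10 genes, with WT as circles, H-ras KO as squares and N-ras KO as triangles, 1 array each. WT is highest and N-ras KO lowest for Hspa1b, Hsph1, Jun, Klf4, Klf6 and Rgs2, whereas for Cyp51, Hmgcs1 and Acss2 the H-ras KO array stands above both others on 8 of 9 probe sets.

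The 5 genes were part of a wider shift of the immediate early list. Of its 60 probe sets (39 genes) 26 were 1.5-fold higher in WT, which is 43.3% against 1.48% of all probe sets with 1 gene, and none was lower. The median difference was 0.43 log2 against 0 over all probe sets, and 20 of the 39 genes were higher. Most of the others have a single probe set and could not enter the 64, such as the gene of the zinc finger factor Nr4a1 (1.14), which TCR signals induce, Ppp1r15a (1.71), a phosphatase subunit of the stress response, and Tnfaip3 (1.06), an inhibitor of NF-kappaB signaling. Klf2 and Dusp1 of this list are also on the lists of resting T-cells and of glucocorticoid-responsive genes. The list was drawn up with results of these arrays known and holds genes that the study names from them, so its count is not independent evidence of a direction.

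Of the heat shock genes, Hspa1b and Hsph1 were among the genes higher in WT. Hspa1b, an inducible Hsp70 chaperone, had the largest mean difference of all 38 genes. It read 3.20, 3.33 and 3.29 log2 in WT, 0 on all 3 probe sets in H-ras KO, and -1.36, -2.01 and -1.39 in N-ras KO. The WT array was at least 9.19-fold above H-ras KO on every one of them. Hspa1a is a nearly identical neighbouring copy, so the probe sets of the pair may read both transcripts and do not count as separate genes with certainty.

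Hsph1, an Hsp110 chaperone that serves Hsp70 as a nucleotide exchange factor, read 1.47 and 1.37 in WT, 0 in H-ras KO, and -1.20 and -1.09 in N-ras KO. Both heat shock members read in the order WT, H-ras KO, N-ras KO, where WT as the highest is partly given by their choice. The median of the chaperone list was 0.22. Of its 66 probe sets none was lower and 10 (15.2%) were higher, against 1.48% of all probe sets with 1 gene. Beside the Hsp70 pair and Hsph1 these were Dnajb9 (1.14), a co-chaperone of the endoplasmic reticulum, and Dnajb4, Hspa4 and Dnaja1 at 0.60 each. The full heat shock element, in which 3 units of GAA or TTC alternate with 2 bases between them, was found before the start of none of the genes. The runs of Hspa1b and Hsph1 are shown for the shorter pairs of its units that they hold, GAANNTTC in Hspa1b (104 bases before the start) and TTCNNGAA in Hsph1 (33 bases before), in capitals. They are GRCm38.p6 chr17:34959239-34959488 and chr5:149636337-149636586, both on the minus strand.
Hspa1b: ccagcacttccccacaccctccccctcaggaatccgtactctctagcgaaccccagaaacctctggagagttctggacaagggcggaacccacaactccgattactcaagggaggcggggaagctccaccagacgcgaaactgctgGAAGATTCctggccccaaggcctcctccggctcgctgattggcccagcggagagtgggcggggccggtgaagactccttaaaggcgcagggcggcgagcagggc
Hsph1: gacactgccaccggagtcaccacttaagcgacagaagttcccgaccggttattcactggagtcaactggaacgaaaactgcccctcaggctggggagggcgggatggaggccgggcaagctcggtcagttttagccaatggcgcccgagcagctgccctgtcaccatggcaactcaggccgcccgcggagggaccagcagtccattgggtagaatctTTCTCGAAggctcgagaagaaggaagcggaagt

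Among genes lower in WT were Cyp51 and Hmgcs1 of cholesterol synthesis. Cyp51, the lanosterol demethylase, read 1.80 and 0.76 log2 in H-ras KO on 2 probe sets, 0 on both in WT, and -0.26 and -0.01 in N-ras KO. On its other probe set it read -0.10 in H-ras KO and 0 in the others, so that this probe set did not follow. Hmgcs1, the synthase of the cytosolic HMG-CoA that feeds the pathway, read 0.67, 0.51, 0.51 and 0.62 in H-ras KO. In WT it read 0, -0.03, 0 and 0, and in N-ras KO -0.06, 0, 0 and 0.

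For both genes WT and N-ras KO were close to each other and the H-ras KO array stood above them. Acss2, which makes cytosolic acetyl-CoA from acetate and is known as a target of the same sterol-responsive factors, was similar, at 0.77 and 0.65 in H-ras KO, 0 and -0.21 in WT, and 0 in N-ras KO. It was not on the list and was singled out after its values were seen. Of 55 probe sets of the cholesterol list (27 genes) none was higher in WT and 6 (10.9%) were lower, against 1.31% of all probe sets with 1 gene. They came from 4 genes, the other 2 being Sqle (-0.68), squalene epoxidase, and Srebf2 (-0.63), the main transcription factor of the pathway. The list's median was -0.14. The run before the Hmgcs1 start (GRCm38.p6 chr13:119690101-119690350, plus strand) is shown because it holds TCACCCCAC, a letter run known from sterol regulatory elements, in capitals 137 bases before the start.
Hmgcs1: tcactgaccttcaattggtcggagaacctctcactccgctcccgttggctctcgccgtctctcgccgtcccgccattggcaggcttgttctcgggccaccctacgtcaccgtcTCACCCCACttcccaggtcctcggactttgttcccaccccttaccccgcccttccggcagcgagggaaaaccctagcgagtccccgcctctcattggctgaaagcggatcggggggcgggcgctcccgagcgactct

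Genes of surface proteins were found on both sides, and those higher in WT are described first. They were put together after their values were seen, and no list covered them. Pvr, an adhesion molecule and ligand of receptors on T and NK cells, passed on 4 of 6 probe sets. It read -1.66, -1.05, -1.48 and -1.53 in H-ras KO on these, 0 in WT, and 0.16, 0.29, 0.17 and 0.21 in N-ras KO. F2r, the thrombin receptor, read -1.03 and -0.65 in H-ras KO, 0.22 and 0.14 in WT, and 0 in N-ras KO. For these genes WT and N-ras KO differed by less than 1.5-fold on every probe set. Both F2r probe sets carry a suffix of those that may hybridize to other transcripts.

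Emb, a membrane protein related to basigin that mature T-cells carry, read -0.84 and -0.998 in H-ras KO, 0 and 0.02 in WT, and 0 in N-ras KO. The costimulatory receptor gene Icos (0.73 and 0.89, WT minus H-ras KO) and Tnfsf11, the ligand RANKL (0.77 and 0.79), were singled out after their values were seen and differed by similar amounts. Ms4a1, which encodes a B-cell surface protein, read -0.62 and -0.70 in H-ras KO, 0 in WT, and 0.46 and 0.78 in N-ras KO. Of 41 probe sets for B-cells and plasma cells 4 (9.76%) were higher in WT, with Cd79a (0.68) and Fcrla (0.69) beside Ms4a1. Another 4 (9.76%) were lower, all of Ighm.

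Other genes with the H-ras KO array below both others were found across cell functions. Glrx, a glutaredoxin that reduces protein disulfides, read -1.17 and -1.17 in H-ras KO, 0 and 0.02 in WT, and 0.05 and 0 in N-ras KO. Supt16, a subunit of the histone chaperone FACT, read -0.66 and -1.50 in H-ras KO, 0.15 and 0.33 in WT, and 0 in N-ras KO. Ccnd2, a D-type cyclin of the G1 phase that mitogens induce, passed on 5 of 7 probe sets, with differences from 0.59 to 0.95. The other 2 differed by 0.40 and 0.44. On these 2 WT read 0 and N-ras KO 0.60 and 0.37, the former 1.52-fold from WT, so H-ras KO was not alone apart. In the cell cycle list of 73 probe sets the 5 of Ccnd2 (6.85%) were the only ones past 1.5-fold, and the median of the list was 0.

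Csnk2a1, the catalytic alpha subunit of casein kinase 2, passed on 3 of 6 probe sets at 1.56, 1.71 and 0.86, and its others differed by 0.40, 0.15 and 0.02. Cnn3, an actin-binding calponin, passed on 5 of 6, with differences of 0.63 to 0.86 and of 0.47 on the sixth. All Cnn3 probe sets except that at 0.86 carry the suffix of probe sets that may hybridize to other transcripts. Without those Cnn3 does not meet the criterion. For Cnn3 the N-ras KO array read 0 throughout and WT 0 to 0.29. Cited2, a transcriptional co-regulator of CBP and p300, had a different order, since WT stood above both KO arrays. It read 1.34 and 1.10 in WT, 0 and -0.08 in H-ras KO, and -0.07 and 0 in N-ras KO.

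The remaining genes higher in WT were those of the interferon-inducible GTPase Iigp1, the peptidase Scpep1, the P-TEFb inhibitor Hexim1, the orphan receptor Gprc5b, the coagulation inhibitor Tfpi, the ubiquitin ligase Siah2, the methionine salvage enzyme Adi1, the transcription factor Cebpb, the nucleosome-binding protein Hmgn3, the guanine nucleotide exchange factor Trio, the glutamine synthetase Glul, the phosphoinositide phosphatase Mtm1, the proteoglycan Sdc1, the RNA-binding protein Igf2bp3, the actin-associated proteins Enc1 and Cttn, the ubiquitin ligase adaptor Spsb1 and the adhesion molecule Nectin3. Tfpi passed on all 3 probe sets, at 0.77, 0.91 and 0.79. Cttn had the smallest mean difference of the 38, at 0.33, because 3 of its 5 probe sets were below 1.5-fold. Adi1 had the most opposed probe sets, at 2.08 and 0.85 against -0.55 on another that stayed below 1.5-fold.

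Gene families with near-identical members gave differences that cannot be assigned with certainty. H2-D1, a classical MHC class I heavy chain, passed on 4 of 9 probe sets, at 0.71, 1.32, 0.86 and 0.76, and its other 5 differed by 0 to 0.46. On 3 of these 5 the N-ras KO array stood 4.49, 4.67 and 4.88 log2 above WT, while H-ras KO was within 1.5-fold of WT. The probe sets of this gene thus read different things, and 7 of the 9 carry the suffix of probe sets that may hybridize to other transcripts. Trim12a, of a family of closely related antiviral TRIM genes, had the lowest mean, -3.07, but from unequal probe sets. It read 5.54 in H-ras KO and 0 in both other arrays on 1 probe set, and 0.53 in H-ras KO, -0.08 in WT and 0 in N-ras KO on the other.

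Ighm, the immunoglobulin mu heavy chain, was lower on 4 of 11 probe sets, by -0.81, -0.77, -1.21 and -0.74. The remaining 7 were between 0 and 0.34. Over all 11 probe sets its mean was -0.22, the smallest in size of the 26, and without the probe sets that may cross-hybridize the mean turned to 0.017. Ighm and Ms4a1 are both B-cell markers and were found on opposite sides of the comparison.

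Of the other genes lower in WT, several belong to signaling by cyclic AMP. Rapgef3, a cAMP-activated exchange factor for the Ras relative Rap1, passed on 4 of 4 probe sets. It read 0.74, 0.58, 0.57 and 0.71 in H-ras KO, -0.06, -0.15, -0.19 and 0 in WT, and 0, 0, 0 and -0.04 in N-ras KO. Pkig, an inhibitor of protein kinase A, read 0.79 and 1.83 in H-ras KO, 0 and -0.11 in WT, and -0.06 and 0 in N-ras KO. Calcrl, a receptor for peptides that raise cAMP, read 1.36 and 0.75 in H-ras KO, -0.02 and -0.34 in WT, and 0 in N-ras KO. This grouping was made after the values were seen and no list covered it, so nothing is read from the number of its genes.

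Zbtb20, a zinc finger repressor, read -1.08, -1.15 and -0.84 in WT, 0, 0 and 0.02 in H-ras KO, and 0.35, 0.05 and 0 in N-ras KO. In contrast to the genes above, WT was the array that stood apart. The same order was found for Luc7l2, a splicing factor, on 2 of 5 probe sets. These read -1.63 and -1.69 in WT, 0 in H-ras KO, and 0.46 and 0.35 in N-ras KO, while its other 3 differed between WT and H-ras KO by -0.21 to 0.08. Rbm39, another splicing factor, passed on 2 of 9 probe sets (-0.99 and -0.88). Of 146 probe sets of the splicing list 7 were lower and 1 was higher in WT, 4 of the 7 being those of Luc7l2 and Rbm39, and the list's median was 0.

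Gm6958 (-1.74 and -0.76) and Pisd-ps3 (-1.34 and -0.78) are predicted genes or pseudogenes whose probe sets may read related transcripts. Hdgfl3, of the hepatoma-derived growth factor family, passed on 2 of 3 probe sets (-1.05 and -1.13). The ubiquitin ligase gene Ankib1 (-1.24 and -0.78) and Nmnat1 (-1.18 and -0.67), which makes NAD in the nucleus, passed on both. The rest, with mean differences from -0.71 to -0.34, were the chemokine Ccl6, the pyruvate dehydrogenase kinase Pdk1, the thymus- and brain-expressed Tbata, D17H6S56E-5, the linker histone H1f2, the focal adhesion protein Lpp, the microtubule protein Clasp2, the sulfate donor synthase Papss2, the kinesin Kif1b and the adaptor subunit Ap2a2. H1f2 belongs to a family of similar histone genes and its probe sets may not be specific.

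Some of the 64 genes lie close together in the RefSeq order of GRCm38.p6, with at most 4 measured genes between them. How often measured genes in general lie this close was not examined. Calcrl and Tfpi are adjacent among the genes measured and differed in opposite directions. Ankib1 and Cyp51, both lower, have 2 measured genes between them, and so do Kif1b and Nmnat1, both lower. Hspa1b, higher, and D17H6S56E-5, lower, have 3 between them, and Nmnat1, lower, and Spsb1, higher, have 4.

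For most genes with several probe sets, a 1.5-fold difference was not repeated within the gene. Of 271 genes with any probe set past 1.5-fold, 206 had exactly 1, and for 11 of these the other probe sets read 0 on all 3 arrays and could not repeat it. Several of the largest differences of the array were of this kind. Slc15a2, a peptide transporter, read -7.04 in H-ras KO, 0.08 in WT and 0 in N-ras KO on 1 probe set, while the other did not differ between WT and H-ras KO. Gnb1, a G protein beta subunit, read 2.50 in WT, 0 in H-ras KO and -0.09 in N-ras KO on 1 of 3 probe sets, and the others differed by 0.11 and 0.28.

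Further genes of this kind were Sub1 (1.81), Pabpc1 (1.62) and Crnkl1 (1.56), higher in WT, and Vapb (-3.48), Ifi209 (-3.05), Vcp (-2.78), Sqor (-2.57) and Paip1 (-2.40), lower. Their other probe sets ranged from -0.45 to 0.38. Trim34a was the 1 gene past 1.5-fold in both directions, at -2.75 and 1.19. For Sub1 and Sqor the other probe set read 0 on all arrays and could not repeat the difference. The difference of any of the other genes thus depended on the probe set that was read.

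**Figure D3:**
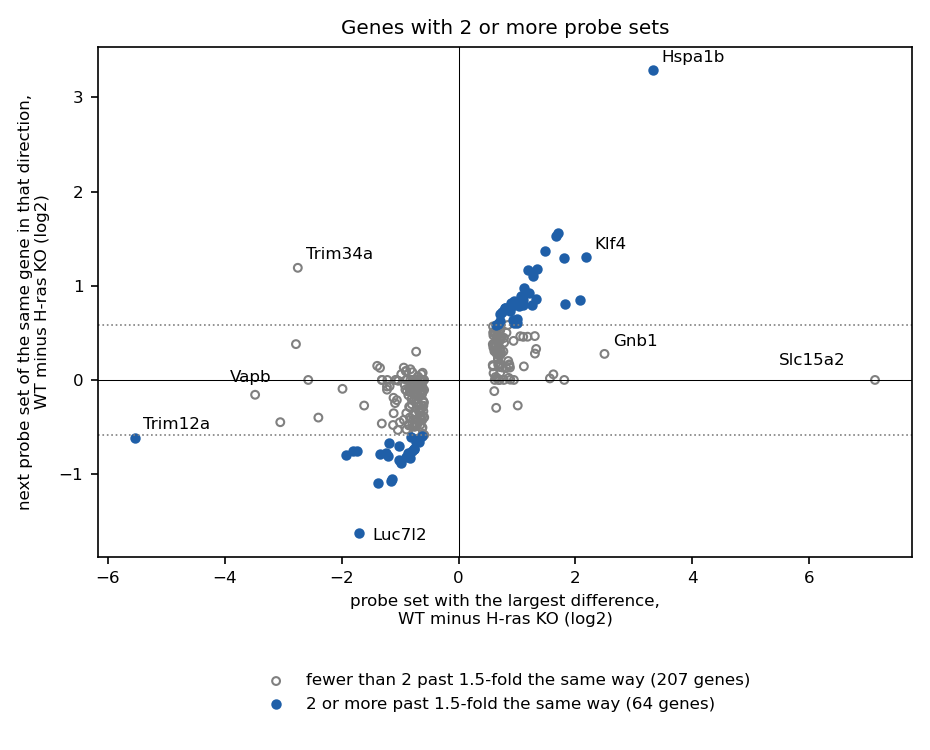
For each of the 271 genes with 2 or more probe sets of which at least 1 passed 1.5-fold, the largest log2 difference, WT minus H-ras KO (horizontal axis), against the next one of the same gene in that direction (vertical axis). Filled points are the 64 genes with 2 or more past 1.5-fold (dotted lines) the same way, and open points are the other 207, such as Slc15a2 at 7.12 and 0.

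Promoter letters were compared for the 52 of the 64 genes that the RefSeq table holds, against all 27025 genes in it, in the 250 bases before each start and on both strands. The AP-1 site TGANTCA was found for 3 of the 52 (Glrx, F2r and Mtm1), which is 5.77% against 7.82% of all genes. The cAMP response element TGACGTCA was found for Clasp2, which is 1.92% against 1.77%. The full heat shock element and the CArG box of the serum response element were found for none, against 0.514% and 1.62%.

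Other letters were searched after the sequences had been seen, and their shares describe these windows only. TGACATCA was found for 5 genes (Jun, Klf6, Mtm1, Pkig and Clasp2), 9.62% against 3.41%. TCACCCCAC was found for Hmgcs1 and Pkig, 3.85% against 0.555%. The heat shock pair TTCNNGAA was found for 4 genes, 7.69% against 8.11%, and GAANNTTC for 2, 3.85% against 7.73%. These 2 pairs are parts of the full heat shock element and overlap with it and each other where it occurs.

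The CD4+ T-cell arrays gave a readout in other animals that the choice of the 64 genes did not use. All 213 probe sets are present on them, and the comparison was stimulated minus unstimulated cells, averaged over WT and N-ras KO. After Benjamini-Hochberg adjustment over 45101 probe sets none of the 213 was called by limma, nor was any of all probe sets (0%), and the smallest adjusted p was 1.00 among the 213 and 0.285 among all. At an unadjusted p under 0.05, 6 of the 213 passed, which is 2.82% against 2.05% of all. With the study's thresholds (unadjusted p of 0.05 and 1.5-fold) 2 were higher, against 0.667% of all, and 2 lower, against 0.738% of all.

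Of the 149 probe sets that passed 1.5-fold in thymocytes, the 90 higher in WT had a median response of -0.03 log2, from -0.97 to 1.48. The 59 lower in WT had a median of -0.14, from -1.99 to 1.16, and the median over all probe sets was 0.01. Of these, 40 of the 90 and 19 of the 59 had a response above 0. The share of all probe sets above 0 was not counted, and several probe sets read 1 gene, so nothing is read from these counts. The 4 arrays numbered 3 of N-ras KO and 1 of WT, stimulated and unstimulated, hold Nras values that go against their labels, with 1 exception. On 1 of the 3 Nras probe sets the stimulated WT array 1 read -0.14, beside 0.38 and -0.19 in the other stimulated WT arrays. On the other Nras probe sets it read -1.23 and -3.04. These values are relative to the unstimulated arrays of the same genotype. Without the 4 arrays 3 of the 213 were higher and 2 lower at the study's thresholds.

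**Figure D4:**
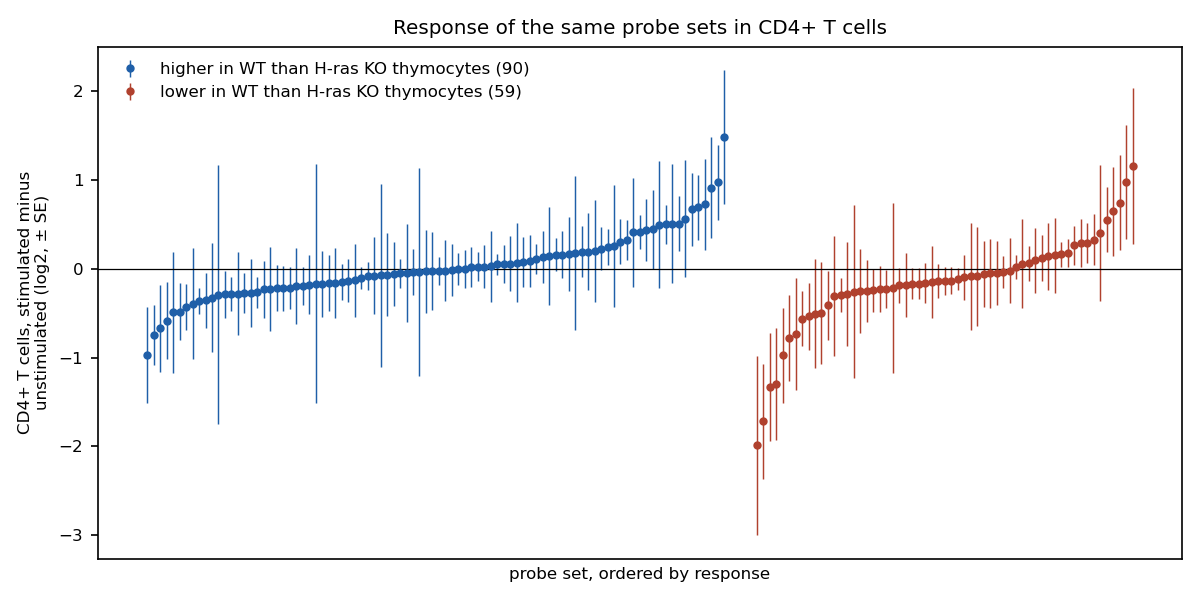
Response of CD4+ T-cells to stimulation (log2, stimulated minus unstimulated, mean of WT and N-ras KO, 3 arrays per group, bars are the standard error from limma) for the 90 probe sets higher (left) and the 59 lower in WT than in H-ras KO thymocytes (right), ordered by response. The responses run from -0.97 to 1.48 and from -1.99 to 1.16, with 40 of 90 and 19 of 59 above 0. The share of all probe sets above 0 was not counted.

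None of the probe sets of the 5 immediate early genes passed the adjusted threshold in the cultured cells, and the standard errors given are those without pairing. The Jun probe sets differed by 0.19 (standard error 0.43) and -0.06 (0.36), those of Klf4 by 0.41 (0.61) and 0.02 (0.25), and those of Rgs2 by 0.06 (0.31) and 0.07 (0.44). The 3 Klf6 probe sets gave -0.29 (0.19), -0.59 (0.43) and -0.11 (0.13), lower in 6, 6 and 5 of 6 pairs of arrays. Gadd45b differed by 0.44 (0.44) and 0.69 (0.36) on the probe sets that passed in thymocytes. These cells were collected after overnight culture, and thymocytes directly.

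Hspa1b gave 0.24 (standard error 0.20), -0.02 (0.29) and -0.07 (1.03), and Hsph1 0.14 (0.55) and 0.16 (0.19). Cyp51 gave 0.12 (0.26) and 0.29 (0.22) on the probe sets past 1.5-fold in thymocytes, and the 4 of Hmgcs1 lay between -0.07 and 0.10. None of these passed the test, which does not show that the genes did not respond.

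The 6 probe sets at an unadjusted p under 0.05 belonged to 5 genes. For Ighm 2 of them were lower after stimulation, by -1.72 (standard error 0.65, unadjusted p = 0.0242, adjusted p = 1.00 from limma) and -1.70 (0.72), lower in 4 and 5 of 6 pairs of arrays. In WT the former read -2.65, 0 and 0.03 without and -2.62, -3.01 and -1.34 with the stimulus, and in N-ras KO -2.74, 0.67 and 0 without and -2.69, -2.67 and -2.66 with it. The groups overlapped, as 1 unstimulated array of each label was as low as the stimulated ones. Here and below each genotype is set to its own unstimulated arrays, so that WT and N-ras KO levels cannot be compared.

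Tnfsf11, which activated T-cells are known to express, was higher by 0.50 (standard error 0.22, unadjusted p = 0.0473, adjusted p = 1.00 from limma) and was higher in 6 of 6 pairs. It read -0.25, 0.04 and 0 without and -0.02, 1.45 and 0.62 with the stimulus in WT, and 0, 0 and -0.13 without and 0.29, 0.25 and 0.08 with it in N-ras KO. Emb was lower by -0.37 (0.15) in 6 of 6 pairs on 1 probe set, and by -0.21 (0.24) in 4 of 6 pairs on its other one. Igf2bp3 (0.64) and Tfpi (0.97) were higher in 5 and 4 pairs, each on 1 probe set. These values include the arrays numbered 3 of N-ras KO and 1 of WT. Without these arrays the larger Emb difference was -0.28 (unadjusted p = 0.223 from limma).

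Pairing of the arrays moved these counts. With a block for the number on the label within each genotype, 11 of the 213 probe sets were higher and 8 lower at the study's thresholds, against 2.74% of all probe sets in either direction, and 33 (15.5%) had an unadjusted p under 0.05 against 6.59% of all. After adjustment none of the 213 was called with the block either, and the smallest adjusted p was 0.607. Without the arrays numbered 3 of N-ras KO and 1 of WT the blocked counts were 10 and 4, while those of all probe sets went from 565 higher and 669 lower to 673 and 826. The 213 probe sets are not independent, since they read 64 genes.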

How the data were processed

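Gene expression was measured on Affymetrix arrays in thymocytes of 3 mice (22690 probe sets) and in 12 samples of CD4+ T-cells (45101 probe sets). The authors deposited log2 values, summarized by RMA per the methods and the submitters' notes, quantile normalized and then set relative to a baseline. On the CD4+ T-cell probe sets whose array values are printed, the median of the 3 unstimulated arrays was 0 in WT and in N-ras KO separately. Levels of WT and N-ras KO CD4+ T-cells were therefore not compared. The median of the 3 thymocyte arrays was 0 on all 22690 probe sets (tolerance 1e-06), and 5379 (23.7%) read 0 on all 3, so neither signal over background nor a filter on dim probe sets could be used. The number of arrays limits the precision. Fold changes and p-values of the study were not used.

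GEO's platform annotation gave 1 gene for 20393 probe sets, several for 691 and none for 1606. Symbols were updated by gene ID to RefSeq (GRCm38.p6) for 20364 probe sets, and probe sets with several genes were left out. Sequences and starts are those of RefSeq on that build. Thymocytes were compared as WT minus H-ras KO with a threshold of 1.5-fold (0.585 log2) and no test.

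CD4+ T-cells were tested with the linear models of limma 3.58.1 (R 4.3.3) on 4 groups of 3 arrays, two-sided, with moderated variances and Benjamini-Hochberg adjustment over all probe sets (threshold 0.05). The fit was tested on simulated data. The labels do not say that arrays of a group came from separate mice, while the methods name a different mouse for each repetition. Deviations from the group means correlated between stimulated and unstimulated arrays of 1 number, at 0.458, 0.447 and 0.738 in WT, and in N-ras KO at 0.361, 0.394 and 0.626. The pairing comes from the numbers on the labels and from these values. The methods describe a split of the sorted cells into stimulated and unstimulated groups, but also name 1 mouse per condition. Whether arrays of 1 number share a mouse is therefore not settled. Alternatives were other thresholds, centring, quantile normalization again, removal of cross-hybridizing probe sets, replicate blocks, array weights, the methods' t-test and leaving out arrays. The combined block without the arrays numbered 3 of N-ras KO and 1 of WT and 4 of the motifs were added later. Tables were made with Python 3.11.15, numpy 2.4.6 and pandas 2.3.3.

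The genes and the 20 gene lists were chosen with earlier results of these data known. Genes are named by rule: Hras and Nras, up to 10 per direction by mean difference, those on a list, those with 4 or more probe sets past the threshold, 3 on each side of the threshold, up to 5 per direction with 1 probe set past it, and genes past it both ways. The other genes are named so that all 64 are accounted for.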

Additional observations from a re-analysis of the deposited data

How the results depend on the processing

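The 38 higher and 26 lower genes of the thymocyte comparison became 9 and 4 at 2-fold and 96 and 74 at 1.3-fold. When every probe set of a gene had to pass they were 24 and 13, and with 3 or more probe sets 8 and 5. Without probe sets that may cross-hybridize 31 of the higher genes were kept, but 16 of the lower. Quantile normalization again kept 33 and 23, and centring of the arrays or removal of probe sets at 0 on all arrays kept all. Under centring, quantile normalization or removal of cross-hybridizing probe sets, the mean difference changed sign for 1 gene, Ighm, from -0.22 to 0.017 log2 without cross-hybridizing probe sets. F2r had no probe set left after that removal and could not be checked in it. Of the list counts, quantile normalization again moved the higher probe sets of the glucocorticoid list from 8 to 5, of the NK list from 2 to 1 and of the interferon list from 1 to 0. Without cross-hybridizing probe sets the lower ones of the B-cell list went from 4 to 1, and the higher ones of MHC class II and of splicing from 1 to 0.

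In the CD4+ T-cells no probe set of these genes passed the adjusted threshold under any setting run. At the study's thresholds, 2 higher and 2 lower became 11 and 8 with the replicate block by number within genotype, 3 and 6 with the block by number alone, and 10 and 4 with the former block without the arrays numbered 3 of N-ras KO and 1 of WT. Quantile normalization again gave 2 and 0, the methods' t-test 3 and 0 in WT and 0 and 0 in N-ras KO, and leaving out each array 0 to 5 higher and 0 to 9 lower. Over all 45101 probe sets the counts were 301 higher and 333 lower, 565 and 669 with the block within genotype, 350 and 340 with the block by number, 673 and 826 with the former block without those arrays, 200 and 156 after quantile normalization, 191 and 160 in WT and 175 and 230 in N-ras KO by the methods' t-test, and 220 to 466 higher and 315 to 470 lower when each array was left out. Leaving out 1 array moved 1 or both counts by over 1.5 times for each of the 12 arrays. The highest lower count, 9, came without the stimulated WT array 3, and 7 without the unstimulated WT array 1. The cause of these changes was not tested.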

Other observations

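Of all probe sets with 1 gene 1.48% were higher and 1.31% lower in WT. Among lists that hold few or none of the 64 genes, 8 of 36 probe sets (22.2%) for glucocorticoid-responsive genes passed 1.5-fold with WT above H-ras KO thymocytes. None passed with WT below, and the median was 0.26 log2. Per1 (0.81), a clock gene, and Sgk1 (0.80), a kinase, were among the 8. The 8 became 5 after quantile normalization again. Of 34 interferon response probe sets 1 was higher and 1 lower, with a median of 0.30. Of 83 probe sets for chromatin regulators 1 was lower, Kmt2a, a histone methyltransferase, at -0.69, and of 19 for eosinophils, mast cells and basophils 3 were higher and 1 lower, led by the granule protein gene Prg2 at 2.89. Of 35 for macrophages and dendritic cells 2 were higher, among them Apoe (1.38), and Adamdec1 was lower (-3.50). Of 25 for NK and cytotoxic cells 2 were higher, of 21 erythroid probe sets 1, and of 12 for MHC class II 1, H2-Aa at 1.31 on 1 of its 2 probe sets.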
